A study of Homo sapiens and Mus musculus with 25 samples.

Results

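The nuclear genes of oxidative phosphorylation were taken as the GENCODE protein-coding genes on chromosomes 1 to 22 and X whose symbols name subunits of the respiratory chain and ATP synthase: the NDUFA, NDUFB, NDUFC, NDUFS and NDUFV genes of complex I, SDHA to SDHD of complex II, the UQCR genes and CYC1 of complex III, the COX4 to COX8 genes of complex IV, and the ATP5F, ATP5M and ATP5P genes of complex V. The symbols selected 98 of 19962 genes. No measurement entered the rule, which was set with earlier results of these data known. By function they comprised 46 genes of complex I, 4 of complex II, 10 of complex III, 19 of complex IV (NDUFA4 among them, now counted as a subunit of cytochrome c oxidase) and 19 of complex V. The 46 of complex I include 8 NDUFAF assembly factors, which are not parts of the finished enzyme. NDUFC2-KCTD14 and ATP5MF-PTCD1 are readthrough genes that share a promoter window with NDUFC2 and ATP5MF, so these pairs are not separate promoters.

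Oxidative phosphorylation passes electrons from NADH and succinate along complexes I to IV to oxygen, pumps protons across the inner mitochondrial membrane, and lets them return through ATP synthase. Most subunits are encoded in the nucleus and are needed in nearly every cell, so their promoters are classed as housekeeping. Several subunits of complex IV also exist as isoforms kept for heart and skeletal muscle, lung or testis. At promoters, trimethylation of histone H3 lysine 4 (H3K4me3) typically lies over the start of active genes, H3K4me2 spreads around it, and H3K4me1 lies on the flanks and at enhancers.

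The study profiled K562, a human chronic myeloid leukaemia line with erythroid features, by ICeChIP-seq, in which barcoded semisynthetic nucleosomes added to the chromatin calibrate the immunoprecipitation. The same untreated line was used throughout, with 8 antibodies raised against H3K4me3, 4 against H3K4me2 and 5 against H3K4me1, and 1 list each for H3K27me3 and H3K9me3. For each degree of methylation the authors also deposited 1 corrected list, computed from 4 of these libraries (ab12209, ab8580, ab7766 and ab8895), so it is not independent of them. An antibody is the unit of replication, and no source used here names separate cultures, so a p-value measures the spread between antibodies. The H3K4 libraries came in sets named AR16 and AR17, each with its own K562 input. All H3K4me1 and H3K4me2 lists are AR16, and among the H3K4me3 lists Diagenode C15410003 and EpiGentek A-4033-050 are AR17. Amplification took 12 cycles for ab12209, A2357 and PA5-40086 (H3K4me3) and 05-1338 (H3K4me2), and 8 for the others. Contrasts between H3K4me3 and H3K4me1 lists therefore also hold differences of set and cycles. The measure is the percentage of the 2001 bases within 1 kb of the start of the canonical transcript (TSS) that lay under a peak. A list gives presence or absence of called peaks, and it does not give the amount of a modification at a promoter without a peak.

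The lists differed widely in how much they called. The H3K4me3 lists held 13311 to 721215 peaks, with Abcam ab8580 at the top, and covered 18.7 to 769 Mb. The H3K4me2 lists covered 111 to 1502 Mb and the H3K4me1 lists 723 to 1593 Mb. The H3K27me3 and H3K9me3 lists covered 2029 and 2834 Mb, so a peak there tells little: 71.4% of oxidative phosphorylation promoters and 73.9% of all promoters had an H3K27me3 peak, and 100% and 98.7% had one for H3K9me3. As a check of the cell line, all 6 erythroid marker genes (GATA1, TAL1, KLF1, NFE2, TFRC and LMO2) had an H3K4me3 peak in at least 5 of 8 lists (52.9% of all genes), and 0 of 6 muscle, heart and liver markers did. Of the latter, ACTN2 had a peak in 4 lists, CKM in 2, ALB and APOA1 in 1 each, and MYH7 and MYH2 in 0. Peaks were scarce on some chromosomes: the mean share of genes with an H3K4me1 peak was 28.2% on X, 40.8% on 13 and 55.6% on 14, against 78.0% over all genes. Of the oxidative phosphorylation genes, COX7B, NDUFA1 and NDUFB11 lie on X and ATP5MJ, COX8C and NDUFB1 on 14, and the part of the chromosome in their values was not tested.

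Promoter sequences of 2 isoform pairs are shown because the restricted gene and its ubiquitous partner differ in CpG content and motifs there, which was not so in every pair. The first pair is COX6A2, the heart and skeletal muscle form of a small complex IV subunit (chr16:31428361-31428560, minus strand), and COX6A1, its ubiquitous form (chr12:120437913-120438112, plus strand). The second is COX8C, known from testis (chr14:93346982-93347181, plus strand), and COX8A (chr11:63974420-63974619, plus strand). Each stretch is the 200 bases before the TSS on the gene's strand, from the RefSeq promoter table on GRCh38.p14, with matches to the NRF1, ETS and YY1 motifs below in capitals.
COX6A2: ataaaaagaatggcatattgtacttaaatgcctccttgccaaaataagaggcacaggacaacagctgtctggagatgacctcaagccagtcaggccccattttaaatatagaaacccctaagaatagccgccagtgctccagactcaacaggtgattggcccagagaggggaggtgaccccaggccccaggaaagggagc
COX6A1: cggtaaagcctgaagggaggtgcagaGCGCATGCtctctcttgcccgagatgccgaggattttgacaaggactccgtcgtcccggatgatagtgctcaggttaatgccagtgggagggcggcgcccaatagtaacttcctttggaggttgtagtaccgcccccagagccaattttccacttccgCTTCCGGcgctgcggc
COX8C: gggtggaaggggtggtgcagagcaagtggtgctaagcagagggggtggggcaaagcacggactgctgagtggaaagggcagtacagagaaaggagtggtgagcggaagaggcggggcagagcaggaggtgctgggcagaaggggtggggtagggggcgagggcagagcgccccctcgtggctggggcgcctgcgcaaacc
COX8A: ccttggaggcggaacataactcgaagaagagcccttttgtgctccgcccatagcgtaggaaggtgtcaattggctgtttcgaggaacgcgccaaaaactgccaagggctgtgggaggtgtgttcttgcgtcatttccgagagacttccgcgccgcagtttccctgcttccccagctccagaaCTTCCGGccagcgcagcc
The COX6A1 stretch held 14 CpG dinucleotides, an NRF1 match and an ETS match, whereas the COX6A2 stretch held 1 CpG and no match. COX8A had 14 CpG and an ETS match 18 bases before its TSS, and COX8C had 8 CpG and no match. The testis form COX6B2 went the other way, with a ratio of observed to expected CpG of 0.799 against 0.664 at COX6B1 in the 300 bases described next, and the ubiquitous partners NDUFA4, COX7A2 and COX7B held no motif there.

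Another 3 ubiquitous genes are shown because their promoters carried the motifs and had H3K4me3 peaks in all 8 lists. SDHD encodes a membrane anchor of succinate dehydrogenase (chr11:112086673-112086872, plus strand). ATP5MK encodes a small membrane subunit of ATP synthase (chr10:103396476-103396675, minus strand). NDUFS7 encodes a core iron-sulfur subunit of complex I (chr19:1383707-1383906, plus strand).
SDHD: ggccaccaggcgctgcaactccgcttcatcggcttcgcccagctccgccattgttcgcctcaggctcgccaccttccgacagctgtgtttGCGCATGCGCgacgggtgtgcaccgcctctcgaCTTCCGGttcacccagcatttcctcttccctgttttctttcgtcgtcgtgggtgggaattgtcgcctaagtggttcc
ATP5MK: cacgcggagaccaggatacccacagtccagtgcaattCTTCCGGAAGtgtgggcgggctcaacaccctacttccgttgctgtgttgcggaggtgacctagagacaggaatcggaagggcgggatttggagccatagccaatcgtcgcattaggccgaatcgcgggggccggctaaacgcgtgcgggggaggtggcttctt
NDUFS7: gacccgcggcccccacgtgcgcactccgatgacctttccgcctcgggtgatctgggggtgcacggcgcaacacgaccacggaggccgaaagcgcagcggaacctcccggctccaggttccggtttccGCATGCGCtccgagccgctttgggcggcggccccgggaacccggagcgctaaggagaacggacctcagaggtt
The NRF1 letters in SDHD and the ETS letters in ATP5MK read on both strands at overlapping positions and were counted as 1 promoter each. SDHD starts 117 bases from TIMM8B and ATP5MK 151 bases from PDCD11, coding genes on the opposite strand. Motifs and peaks between these starts cannot be assigned to either gene of a pair.

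The motifs searched on both strands were GCATGCGC for NRF1, CCGGAAG for ETS factors such as GABP, and AAGATGGC for YY1, regulators known from studies of respiratory genes. They were sought in the 300 bases from 250 before the canonical TSS, read from the hg38 genome. The NRF1 letters occurred in 15 oxidative phosphorylation promoters, 15.3%, against 4.24% of all promoters. The ETS letters occurred in 26, 26.5% against 14.1%, and the YY1 letters in 17, 17.3% against 4.06%. At least 1 motif was found in 46 of 98 promoters, against 4061 of all 19962, and in 0 of the 9 restricted isoforms or copies. The median ratio of observed to expected CpG was 0.520 in the restricted genes (range 0.194 to 0.799), 0.856 in the other 89 (0.523 to 1.18) and 0.776 over all genes. A head-to-head arrangement, with the TSS of another coding gene on the opposite strand within 1000 bases upstream, was found for 28 of 98 genes, 28.6% against 9.33% of all genes, and for 0 of the 9 restricted genes. With 9 genes, counts of 0 do not set the restricted genes apart at these shares of all genes, and no test was made. SDHA and CCDC127 start 167 bases apart, UQCRH and LRRC41 82 bases, and ATP5PF and GABPA, which encodes an ETS factor, 68 bases. In such pairs 1 peak covers both starts and cannot be assigned to either gene.

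Oxidative phosphorylation promoters carried H3K4me3 peaks more often than promoters in general. In the 8 H3K4me3 lists, 84.3% ± 6.52 of the 98 genes had a peak within 1 kb of the TSS, against 54.9% ± 13.8 of all genes (SD over antibodies). The members' share was above that of all genes in each list, by the most in Diagenode C15410003 (77.6% against 40.2%) and EpiGentek A-4033-050 (71.4% against 33.5%), and by the least in ab8580 (85.7% against 75.3%). In the 4 H3K4me2 lists 89.5% ± 4.36 of the genes had a peak, against 76.0% ± 7.12 of all genes. In the 5 H3K4me1 lists the shares were 85.3% ± 7.38 and 78.0% ± 5.16. These shares are descriptions of the same peak lists and carry no test.

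**Figure D1:**
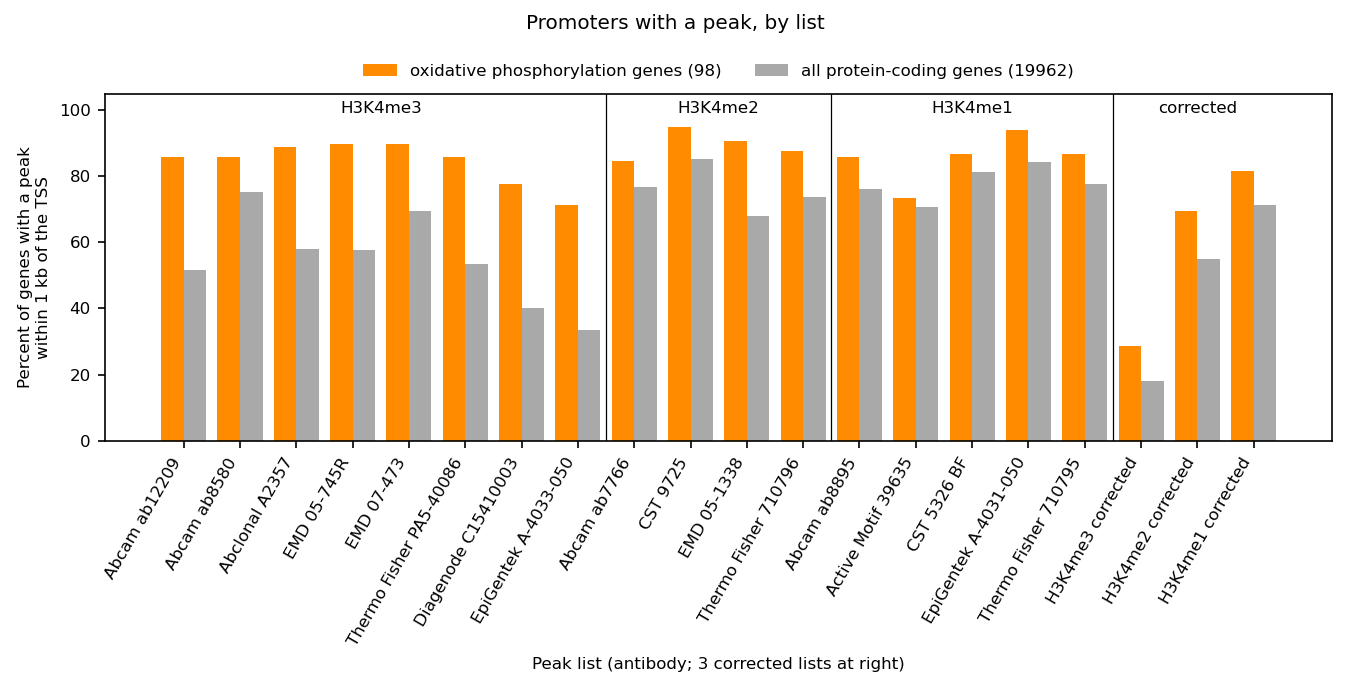
Percentage of genes with a peak within 1 kb of the TSS in each peak list, for the 98 oxidative phosphorylation genes (orange) and all 19962 protein-coding genes (grey). The gap between the bars is wide in most H3K4me3 lists, such as 71.4% against 33.5% for EpiGentek A-4033-050, and narrow in H3K4me1 lists such as Active Motif 39635 (73.5% against 70.7%).

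Peaks of the other degrees were also frequent: 79 members had an H3K4me2 peak in 4 of 4 lists (59.5% of all genes) and 71 an H3K4me1 peak in 5 of 5 (60.8%). Counted by gene, 85 of the 98 had an H3K4me3 peak in at least 5 of the 8 lists, where 52.9% of all genes did. The 85 were made up of 84 of the 89 ubiquitous genes and 1 of the 9 restricted genes. In 65 genes all 8 lists had a peak (31.1% of all genes), and in 55 genes all 17 H3K4 lists had one (27.9%). An H3K4me3 peak was missing from all 8 lists at COX4I2, COX8C, ATP5MGL and NDUFB11 (16.1% of all genes). NDUFB11, an accessory subunit of complex I on X, was the ubiquitous gene among them.

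The authors gave 1 value per peak in 14 of the H3K4 lists. Its meaning is not stated in the lists, and values reached 103 in an H3K4me3 list and 107 in the corrected H3K4me3 list, so it is not a percentage with a limit of 100 and is read here mainly as a rank. In the 5 H3K4me3 lists with values, the median peak over an oxidative phosphorylation promoter stood at the 77.5 ± 5.19 percentile of promoter peaks (SD, n = 5). The percentile was 59.8 ± 7.49 in the H3K4me2 lists (n = 4) and ranged from 52.7 to 63.8 in the 5 H3K4me1 lists. The H3K4me3 peaks were close to the middle in width, at the 56.1 ± 6.50 percentile (n = 8).

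The H3K4me3 lists covered more of the start sites than the H3K4me1 lists, and the H3K4me2 lists overlapped both. At the TSS base itself, 83.0% ± 7.11 of the 98 genes lay under an H3K4me3 peak, 67.3% ± 26.1 under an H3K4me2 peak and 33.7% ± 16.7 under an H3K4me1 peak. Single lists ran from 68.4% to 88.8% for H3K4me3, from 32.7% to 90.8% for H3K4me2 and from 16.3% to 60.2% for H3K4me1, and no test was made. For all genes the shares were 49.3% ± 12.5 for H3K4me3, 62.0% ± 16.4 for H3K4me2 and 45.5% ± 11.1 for H3K4me1. In the 89 ubiquitous genes H3K4me1 covered 30.6% ± 19.3 of starts but 79.8% ± 5.89 of positions 1 kb upstream and 80.7% ± 4.38 of positions 1 kb downstream. H3K4me3 in these genes covered 90.0% ± 7.27 of starts, 81.3% ± 12.8 at 1 kb downstream and 48.0% ± 18.7 at 1 kb upstream, and 15.7% ± 22.6 at 3 kb downstream. The 9 restricted genes had no such dip: H3K4me1 covered 64.4% ± 18.3 of their starts and 62.2% ± 12.7 of positions 1 kb upstream, and H3K4me3 covered 13.9% ± 20.4 of their starts.

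**Figure D2:**
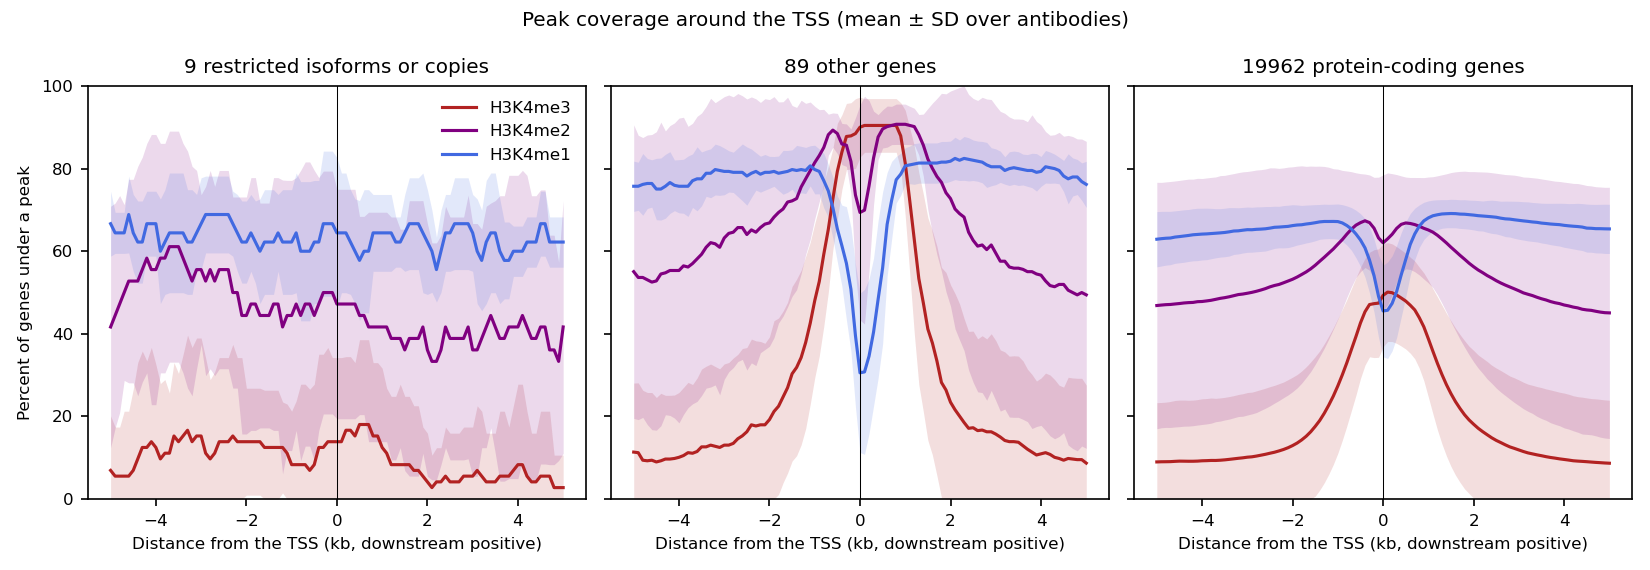
Percentage of genes under a peak against distance from the TSS in kb, for the 9 restricted isoforms or copies, the 89 other oxidative phosphorylation genes and all 19962 protein-coding genes. Lines are means and bands are SD over the 8 H3K4me3, 4 H3K4me2 and 5 H3K4me1 antibodies. The H3K4me1 line drops to 30.6% at the TSS of the 89 genes and stays at 64.4% in the restricted genes.

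Coverage of the window was compared between the H3K4me3 and H3K4me1 lists with an exact two-sided permutation test per gene over the 13 antibodies, adjusted by Benjamini-Hochberg over all 19962 genes. H3K4me3 covered more of the window at 30 oxidative phosphorylation promoters, where 11.3% of all genes were called higher. It covered less at 7, where 26.5% of all genes were called lower. The median difference, H3K4me3 minus H3K4me1, was 18.7 percentage points over the 98 genes, against -7.55 over all genes. By complex, 16 of 46 genes of complex I, 2 of 4 of complex II, 5 of 10 of complex III, 2 of 19 of complex IV and 5 of 19 of complex V were called higher. The genes called lower were NDUFA8 and NDUFB2 of complex I, UQCRHL of complex III, COX4I2, COX7A1 and NDUFA4L2 of complex IV, and ATP5MGL of complex V. Of these 7, 5 are restricted isoforms or copies. Antibodies of the 2 groups did not overlap, with all H3K4me3 lists above all H3K4me1 lists, at 10 genes (4.48% of all genes), and with all below at COX4I2 (8.98%).

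The counts changed with the window and with the antibody left out. With 2.5 kb either side of the TSS, 6 members were called higher (0.997% of all genes) and 53 lower (56.1%); the wider window takes in the flanks where H3K4me1 peaks were frequent. Without ab8580, 28 members were called higher (10.5% of all genes) and 10 lower (32.7%). Without Active Motif 39635, 29 were called higher (10.8%) and 3 lower (15.7%). When one of the other 11 was left out, 10 to 17 were called higher (4.85% to 6.60% of all genes) and 1 or 2 lower (12.4% to 15.5%). In all 13 such fits 11 of the 37 calls held: ATP5MK, ATP5PB, NDUFA1, NDUFA7, NDUFAF8, NDUFB3, NDUFB4, NDUFV1, UQCR10 and UQCRFS1 higher, and COX4I2 lower. Of these, ATP5PB, NDUFA7, NDUFAF8, NDUFV1 and UQCR10 had a negative difference with the window of 2.5 kb.

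**Figure D3:**
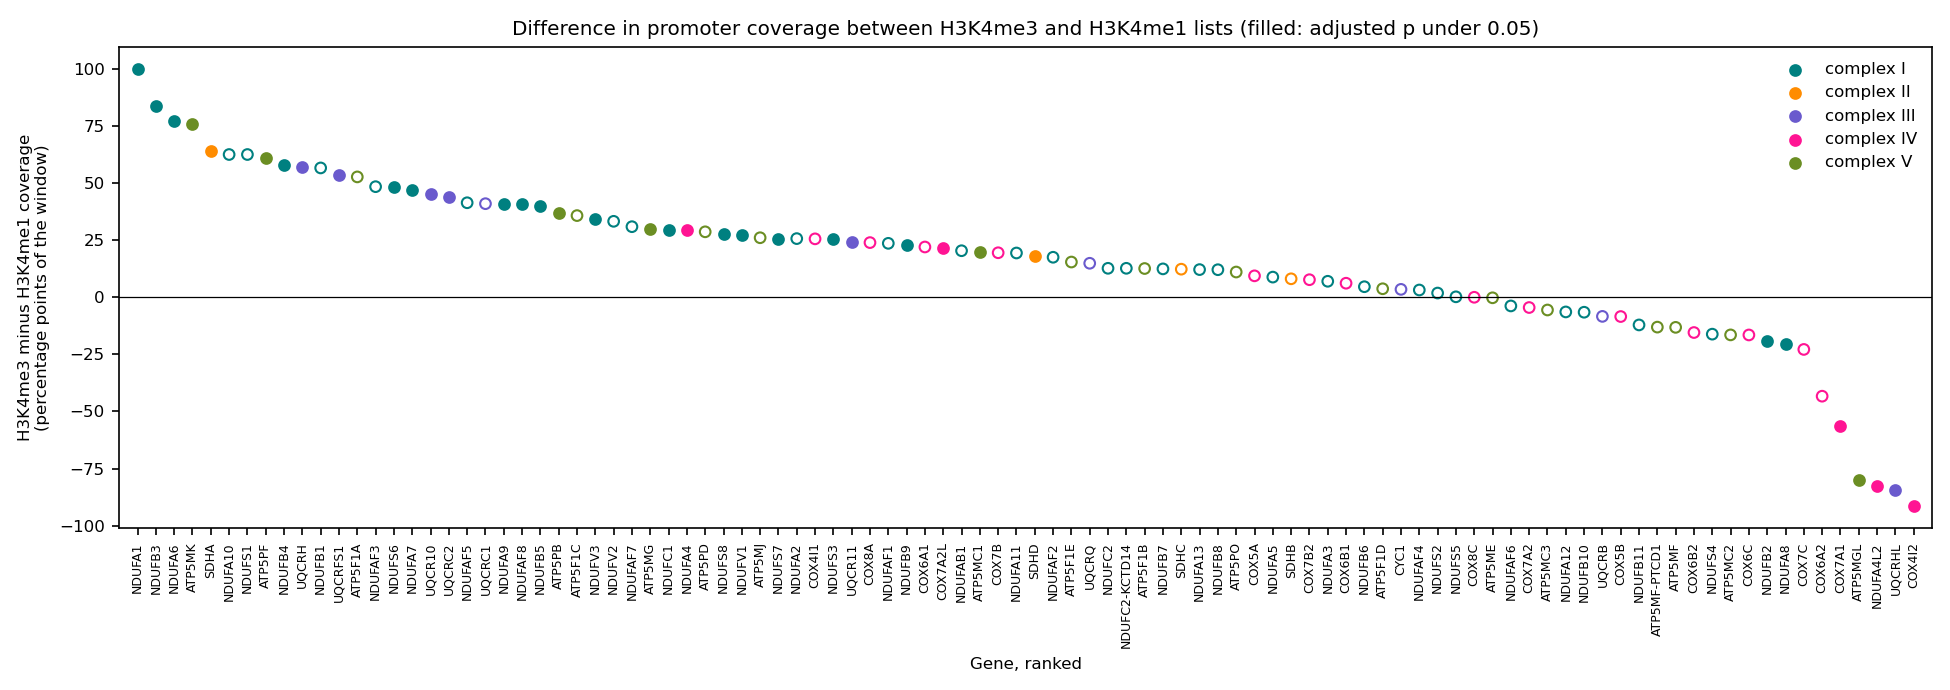
Difference in mean promoter coverage, H3K4me3 minus H3K4me1, in percentage points of the window, for the 98 genes in rank order and coloured by complex. Filled points had an adjusted p under 0.05 in the exact permutation test. NDUFA1 is highest at 100 points and COX4I2 lowest at -91.3.

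The other contrasts gave no call for any gene. H3K4me2 against H3K4me1 could reach an exact permutation p of 0.0159 at best with 4 and 5 antibodies, and the smallest adjusted p was 0.252. At an unadjusted p under 0.05, 19 members were higher for H3K4me2 and 0 lower, of 2008 and 71 genes in all. H3K4me3 against H3K4me2 reached an adjusted p of 0.160 at best, with 1 member higher and 11 lower unadjusted, of 128 and 4866 genes.

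Complex I takes electrons from NADH and passes them to ubiquinone. H3K4me3 peaks were in at least 5 of 8 lists at all 7 core subunits and all 8 assembly factors, and at 27 of 30 accessory subunits. NDUFA1, an accessory subunit encoded on X (TSS 119871832, plus strand), showed the widest gap. Its window was covered to 100% in each of the 8 H3K4me3 and 4 H3K4me2 lists and to 0% in each of the 5 H3K4me1 lists (adjusted p = 0.0115, exact permutation test). No overlap was left between the groups, and the nearest H3K4me1 peak of ab8895 lay 11.4 kb away. NDUFB3, another accessory subunit, was covered to 100% in all 8 H3K4me3 lists and to 26.7%, 0%, 23.9%, 31.3% and 0% in the H3K4me1 lists (difference 83.6 points, adjusted p = 0.0115, exact permutation test). Its groups did not overlap either.

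NDUFV1 and NDUFS7 belong to the catalytic core of complex I. NDUFV1, which binds NADH, had H3K4me3 coverage from 90.2% to 100% (median 98.3%), against 76.9%, 43.5%, 72.5%, 83.7% and 72.3% in the H3K4me1 lists. Every H3K4me3 list was above every H3K4me1 list, with a difference of 27.5 points (adjusted p = 0.0115, exact permutation test). At the 5′ end of the gene in place of the canonical TSS the difference was -47.6 points (adjusted p = 0.0321, exact permutation test), and within 2.5 kb of the canonical TSS it was -30.5 points and did not pass. NDUFS7, whose upstream sequence is printed above, ranged from 73.6% to 100% (median 97.6%) in the H3K4me3 lists, against 47.1%, 88.8%, 79.0%, 69.3% and 49.8% in the H3K4me1 lists. Its groups overlapped, and the difference was 25.7 points (adjusted p = 0.0395, exact permutation test). Within 2.5 kb it was -42.4 points (adjusted p = 0.0148, exact permutation test).

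Accessory subunits NDUFA8 and NDUFB2 went the other way. NDUFA8 ranged from 62.9% to 94.6% in H3K4me3 lists (median 68.1%), against 100%, 100%, 85.3%, 100% and 79.1% in H3K4me1 lists (difference -20.6 points, adjusted p = 0.0346, exact permutation test). Both groups were high and overlapped, and all 8 H3K4me3 lists had a peak there. NDUFB2 differed by -19.3 points (adjusted p = 0.0395, exact permutation test), with 65.8% to 100% in the H3K4me3 lists and 87.1% to 100% in the H3K4me1 lists. There too all 8 H3K4me3 lists had a peak, and it covered less of the window.

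The complex I genes with peaks in the most of the 17 lists were NDUFC2 and NDUFB9 (ties broken by mean coverage), and those with the fewest NDUFB8 and NDUFB11. All 17 lists had a peak at NDUFC2 and NDUFB9. NDUFB8, an accessory subunit, had H3K4me3 peaks in Diagenode C15410003 (91.7% of the window) and EpiGentek A-4033-050 (80.9%) and in none of the other 6 H3K4me3 lists. Both of these lists belong to the AR17 set named in the deposited data, and the other 6 to the AR16 set. Peaks in both AR17 lists and no AR16 list were found at 23 of 19962 genes (0.115%), of which NDUFB8 and COX7B are members. The opposite pattern, all 6 AR16 lists and neither AR17 list, was found at 8 members, ATP5F1A, ATP5F1C, COX4I1, COX6B2, COX7C, NDUFAF2, NDUFAF4 and NDUFB1, against 11.2% of all genes. NDUFB11 had no H3K4me3 peak, 1 H3K4me2 peak (EMD Millipore 05-1338, 100%) and 2 H3K4me1 peaks (28.8% in EpiGentek A-4031-050 and 31.8% in Thermo Fisher 710795).

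**Figure D4:**
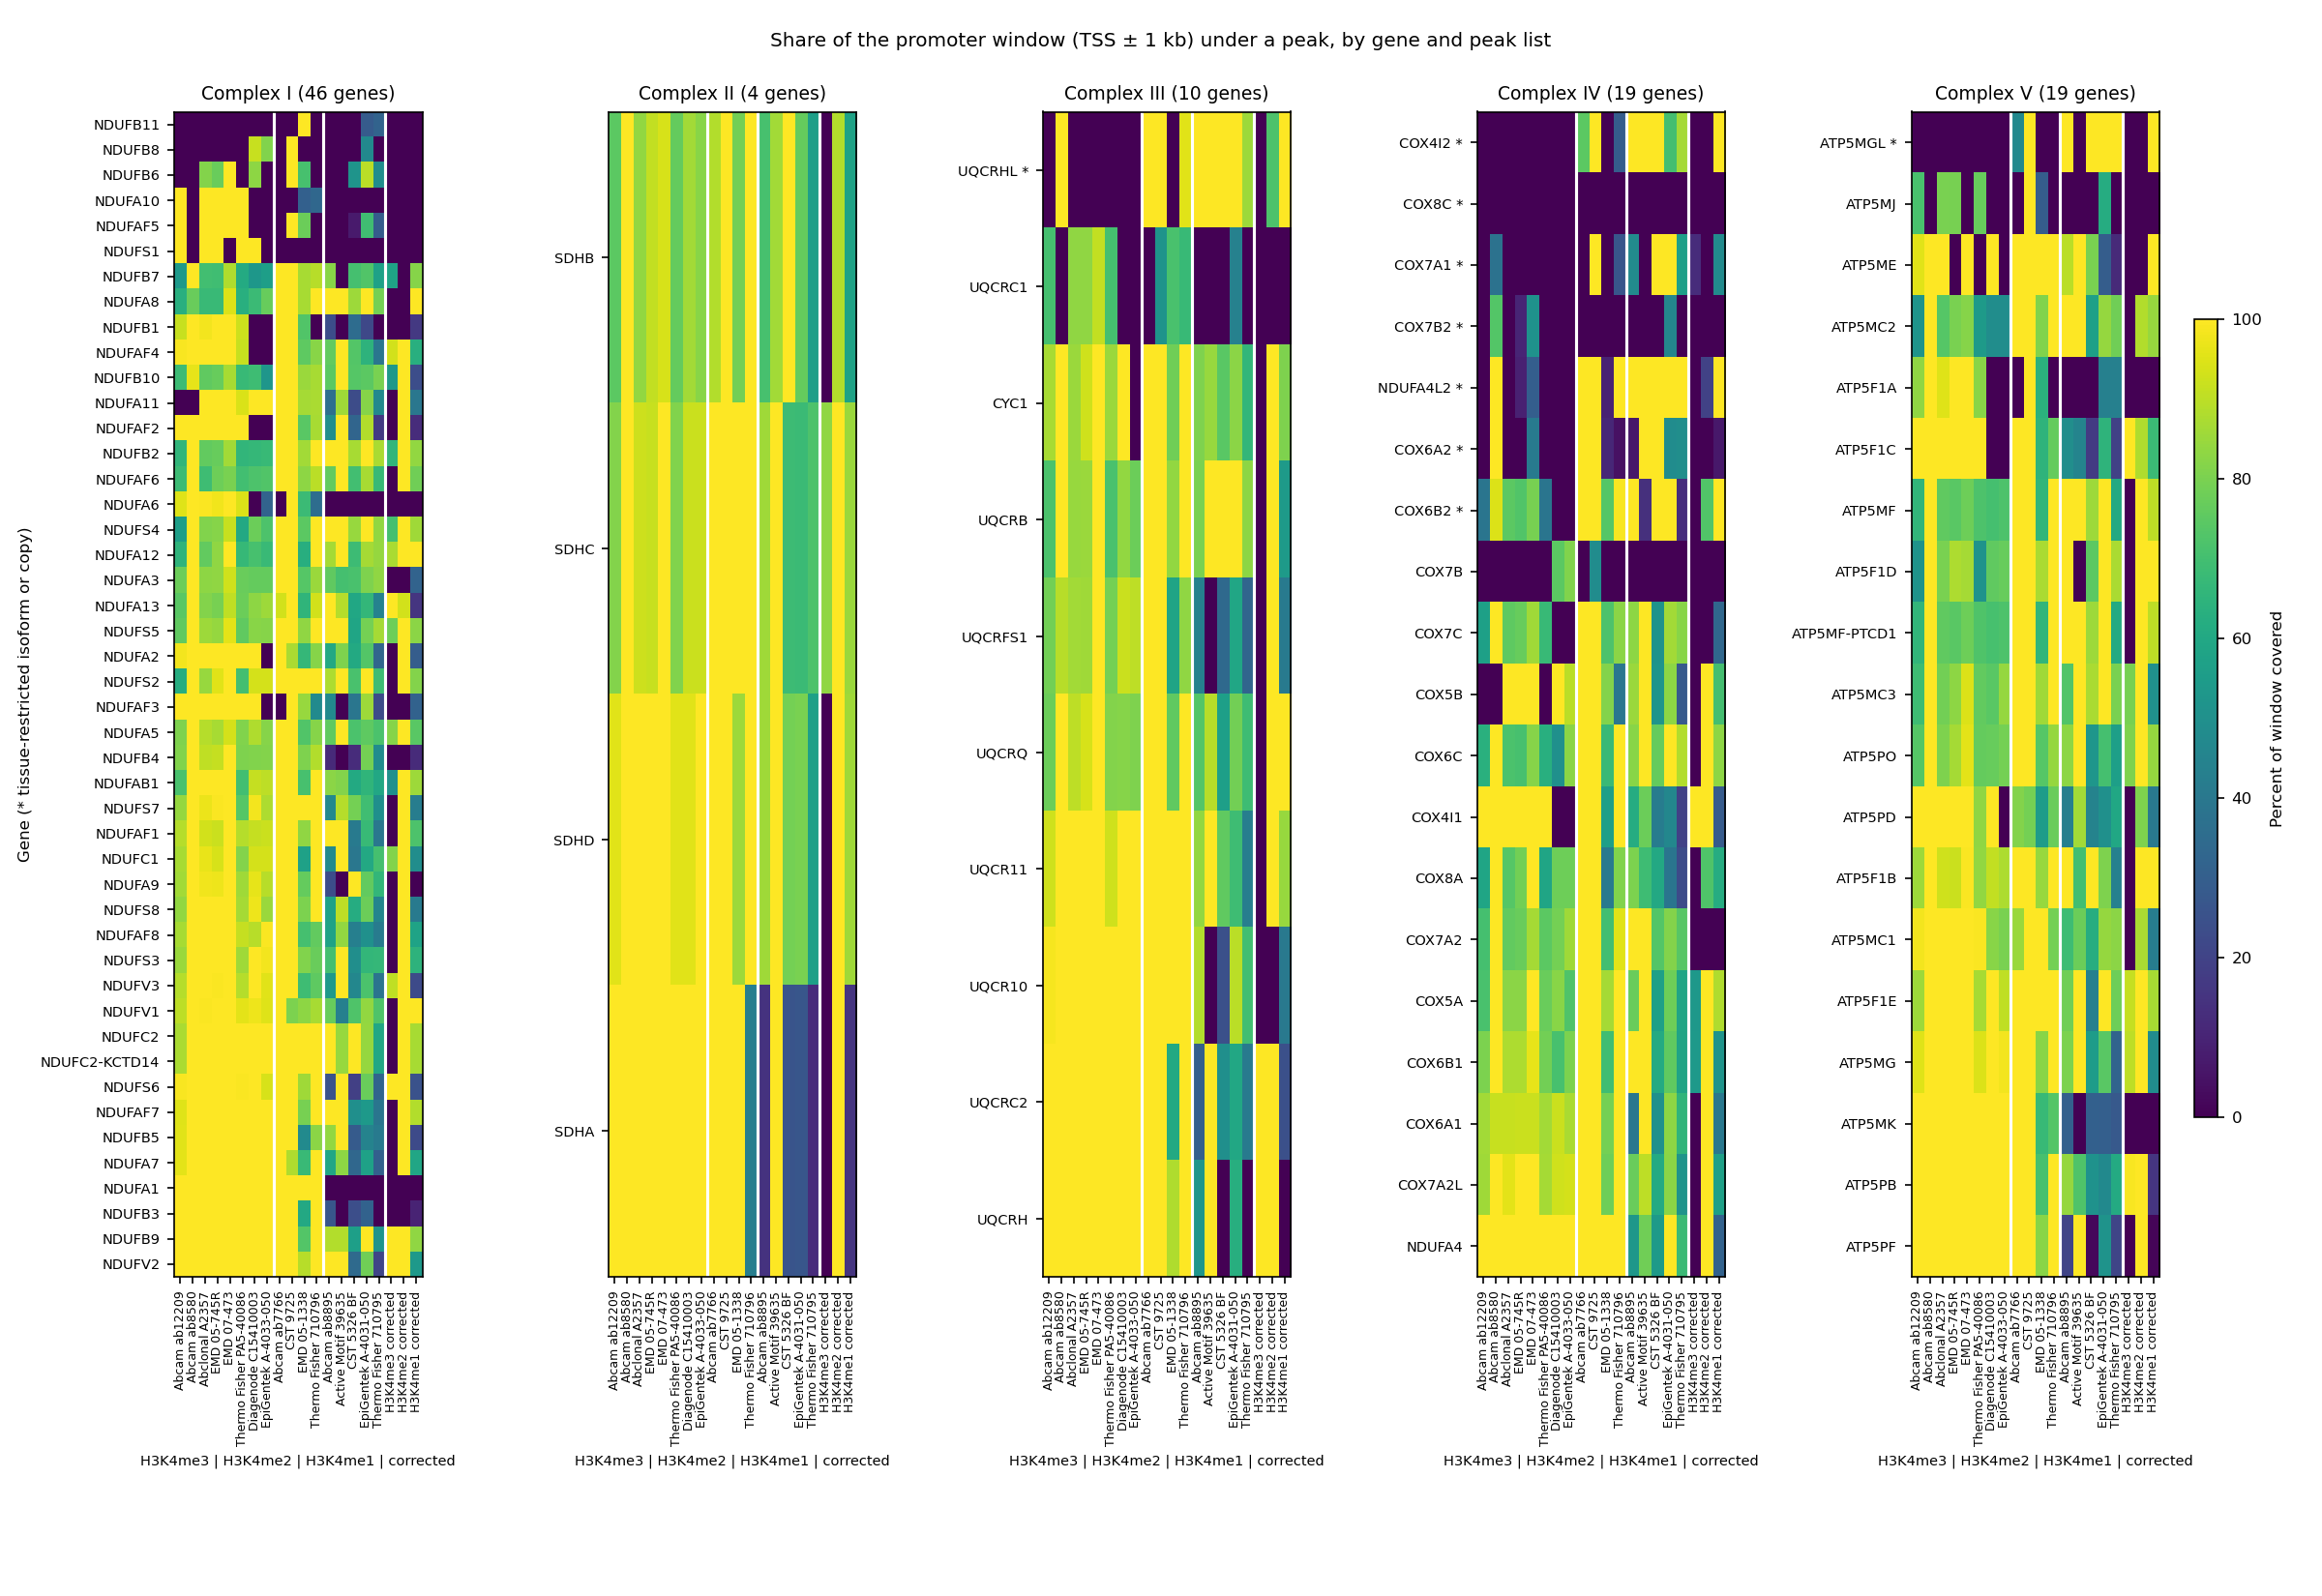
Percentage of the window within 1 kb of the TSS under a peak, for each of the 98 genes (rows, by complex, ordered by mean H3K4me3 coverage with restricted isoforms or copies marked and placed first) and each H3K4me3, H3K4me2, H3K4me1 and corrected list (columns, from left to right). Restricted genes such as COX4I2 and ATP5MGL are dark under all 8 H3K4me3 antibodies, where SDHA and NDUFA1 reach 100%.

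A small group had H3K4me3 without H3K4me1. NDUFS1, NDUFA10, NDUFA6 and NDUFA1 of complex I and UQCRC1 of complex III had an H3K4me3 peak in at least 5 lists and an H3K4me1 peak in at most 1, a pattern seen at 1.11% of all genes. NDUFS1, the largest core subunit, was covered to 100% in 5 H3K4me3 lists and to 0% in ab8580, EMD Millipore 07-473 and EpiGentek A-4033-050, and no H3K4me2 or H3K4me1 list had a peak there. NDUFA6, an accessory subunit, was covered from 0% (Diagenode C15410003) to 100% in H3K4me3 lists, with a median of 96.5%, against 0% in all 5 H3K4me1 lists (difference 77.3 points, adjusted p = 0.0346, exact permutation test).

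Complex II, succinate dehydrogenase, links the citric acid cycle to the chain. All 4 genes had a peak in all 17 lists. SDHA, the flavoprotein that oxidises succinate, was covered to 100% by all 8 H3K4me3 antibodies and to 14.6%, 100%, 25.9%, 26.8% and 12.7% by the H3K4me1 antibodies, where the 100% was Active Motif 39635, whose median peak was 25008 bases wide. The difference was 64.0 points (adjusted p = 0.0395, exact permutation test), and 4 of 5 H3K4me1 lists were below every H3K4me3 list. SDHD ranged from 95.5% to 100% in H3K4me3 lists, against 85.8%, 100%, 79.2%, 79.8% and 57.0% in H3K4me1 lists, a difference of 18.0 points (adjusted p = 0.0395, exact permutation test). Within 2.5 kb the SDHD difference was -37.0 points (adjusted p = 0.0281, exact permutation test).

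SDHB, the iron-sulfur subunit, and SDHC, the other anchor, did not pass. SDHB ranged from 74.7% to 100% in H3K4me3 lists (median 85.1%), against 70.9%, 86.0%, 100%, 76.4% and 56.4% in H3K4me1 lists (difference 8.09 points, adjusted p = 0.408, exact permutation test). SDHC differed by 12.3 points (adjusted p = 0.133, exact permutation test). The groups overlapped at both genes.

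Complex III passes electrons from ubiquinol to cytochrome c. UQCRFS1, the Rieske iron-sulfur protein, ranged from 78.7% to 100% in H3K4me3 lists (median 87.7%), against 44.4%, 0%, 34.3%, 59.0% and 32.6% in H3K4me1 lists, with no overlap (difference 53.5 points, adjusted p = 0.0115, exact permutation test). UQCRC1, a core protein, had H3K4me3 peaks in 5 lists, up to 91.0%, and an H3K4me1 peak in EpiGentek A-4031-050 alone (44.1%), a difference of 41.0 points that did not pass (adjusted p = 0.161, exact permutation test). CYC1, cytochrome c1, had an H3K4me3 peak in every list but EpiGentek A-4033-050 (median 89.8%), against 80.6%, 84.8%, 74.3%, 82.8% and 66.0% in H3K4me1 lists, and the difference of 3.46 points did not pass (adjusted p = 0.907, exact permutation test). UQCRB and UQCR11, small subunits, had peaks in all 17 lists. UQCR11 was called higher by 24.0 points (adjusted p = 0.0395, exact permutation test), but lower within 2.5 kb (-35.4 points, adjusted p = 0.0121), and UQCRB differed by -8.37 points (adjusted p = 0.352, exact permutation test).

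Complex IV, cytochrome c oxidase, reduces oxygen. Of its 19 genes 12 had an H3K4me3 peak in at least 5 lists: 10 of 11 ubiquitous subunits, the related COX7A2L, and COX6B2 among 7 restricted isoforms. NDUFA4 and COX7A2L, a factor in the assembly of supercomplexes, were the genes called higher, by 29.2 points (adjusted p = 0.0395) and 21.7 points (adjusted p = 0.0318, both by the exact permutation test). Both turned with the window of 2.5 kb, to -24.0 points at NDUFA4 (adjusted p = 0.0304) and -27.9 at COX7A2L (adjusted p = 0.0281, both by the exact permutation test). At the 5′ end of the gene, 63871 bases from the canonical TSS, COX7A2L was at -63.1 points (adjusted p = 0.0377, exact permutation test). COX5A and COX6C had peaks in all 17 lists. COX5B, a zinc-binding subunit, was at 0% in ab12209, ab8580 and PA5-40086 and between 89.5% and 100% in the other 5 H3K4me3 lists. COX7C was at 0% in both AR17 lists and between 57.0% and 100% in the other 6. The median difference over complex IV was 0 points, against 9.38 over its 11 ubiquitous subunits and -43.3 over its 7 restricted isoforms.

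Complex V, ATP synthase, had H3K4me3 peaks in at least 5 lists at 17 of 19 genes. ATP5MK was covered to 100% in all 8 H3K4me3 lists, against 30.7%, 0%, 30.8%, 30.4% and 28.0% in H3K4me1 lists (difference 76.0 points, adjusted p = 0.0115, exact permutation test), with no overlap. ATP5PF, a stalk subunit that shares its promoter with GABPA, was likewise at 100% in all H3K4me3 lists, against 20.5%, 100%, 2.15%, 51.2% and 20.7% in H3K4me1 lists (difference 61.1 points, adjusted p = 0.0395, exact permutation test). None of the 5 F1 subunit genes (ATP5F1A to ATP5F1E) was called, and their coverage varied. ATP5F1B, the beta subunit, ranged from 83.9% to 100% in H3K4me3 lists, against 100%, 69.8%, 100%, 80.8% and 43.9% in H3K4me1 lists (difference 12.6 points, adjusted p = 0.339, exact permutation test). ATP5F1E, the epsilon subunit, had a peak in all 17 lists. ATP5F1A, the alpha subunit, was at 0% in both AR17 lists and between 82.4% and 100% in the 6 AR16 lists, and at 0%, 0%, 0%, 43.7% and 43.5% in H3K4me1 lists. ATP5MJ, a small membrane subunit on chromosome 14, had H3K4me3 peaks in 4 lists, from 71.3% to 80.0%.

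The restricted isoforms were then set against their ubiquitous partners. Within each H3K4me3 list the coverage of the restricted gene minus that of the partner was taken, and the 8 differences were tested with an exact two-sided sign-flip permutation test, adjusted over the 9 pairs. In 8 of the 9 pairs the restricted gene had less H3K4me3 coverage, by 35.3 to 98.5 points. With 8 lists the smallest possible p is 0.00781, which becomes 0.0176 after adjustment. The test needs nearly all lists: with 6 or fewer (the AR16 lists, those made with 8 amplification cycles, or those with peak values) 0 pairs passed.

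The pairs of heart and skeletal muscle isoforms were COX6A2 with COX6A1 and COX7A1 with COX7A2. COX6A2 was covered to 100% in ab8580 and 40.7% in EMD Millipore 07-473 and to 0% in the other 6 H3K4me3 lists, whereas COX6A1 was covered from 86.0% to 92.1% in all 8. The mean difference was -72.2 points (SD 35.3, n = 8, p = 0.0156, adjusted p = 0.0201, exact permutation test), lower in 7 of 8 lists. In the H3K4me1 lists COX6A2 was at 6.50%, 100%, 100%, 48.6% and 49.4%, and COX6A1 at 39.5%, 100%, 50.7%, 83.2% and 65.6%, lower in 3 lists, higher in 1 and equal in 1. COX7A1 had a peak in ab8580 alone (37.6%), and COX7A2 was covered from 70.5% to 100% in all 8 H3K4me3 lists (difference -76.6, SD 7.90, adjusted p = 0.0176, exact permutation test). COX7A1 was lower in 8 of 8 lists. With the 5′ end of each gene in place of the canonical TSS the difference was 3.28 points and did not pass. That end lies 2 bases from the canonical TSS of COX7A1 and 6522 bases from that of COX7A2, so mainly the COX7A2 window moved.

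COX4I2, a form of the largest nuclear-encoded complex IV subunit known from lung, and NDUFA4L2, a hypoxia-induced paralog of NDUFA4, had H3K4me1 peaks in every list and few or no H3K4me3 peaks. COX4I2 was at 0% in all 8 H3K4me3 lists and at 100%, 100%, 100%, 70.1% and 86.7% in the H3K4me1 lists (difference -91.3 points, adjusted p = 0.0115, exact permutation test). COX4I1 was at 100% in the 6 AR16 H3K4me3 lists and at 0% in both AR17 lists. The pair therefore differed in 6 of 8 lists (-75.0, SD 46.3, p = 0.03125, adjusted p = 0.0352, exact permutation test), and it no longer passed when any AR16 list was left out. NDUFA4L2 was covered to 100% in ab8580, 9.35% in EMD Millipore 05-745R, 29.7% in 07-473 and 0% in the others, and to 100% in all 5 H3K4me1 lists. NDUFA4 was at 100% in all 8 H3K4me3 lists (pair difference -82.6, SD 35.0, adjusted p = 0.0201, exact permutation test).

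COX6B2, COX7B2 and COX8C are isoforms known from testis. COX6B2 was the restricted gene with the most H3K4me3: 38.9% to 94.8% in the 6 AR16 lists and 0% in both AR17 lists, against 71.0% to 100% at COX6B1 (difference -35.3, SD 28.1, adjusted p = 0.0176, exact permutation test). COX8C had no peak in any of the 17 H3K4 lists or the corrected lists, and COX8A had H3K4me3 peaks in all 8 lists, from 58.6% to 100% (difference -78.2, SD 15.7, adjusted p = 0.0176, exact permutation test). COX7B2 and COX7B were the pair that did not pass (-2.65 points, SD 53.7, adjusted p = 0.875, exact permutation test). COX7B2 had H3K4me3 peaks in ab8580 (73.2%), 05-745R (10.4%) and 07-473 (51.0%), and COX7B in Diagenode C15410003 (74.8%) and EpiGentek A-4033-050 (81.1%), so no H3K4me3 list had a peak at both. Their upstream sequences, chr4:46909246-46909445 on the minus strand and chrX:77899268-77899467 on the plus strand, are given because COX7B is the ubiquitous gene of these pairs without peaks in most lists.
COX7B2: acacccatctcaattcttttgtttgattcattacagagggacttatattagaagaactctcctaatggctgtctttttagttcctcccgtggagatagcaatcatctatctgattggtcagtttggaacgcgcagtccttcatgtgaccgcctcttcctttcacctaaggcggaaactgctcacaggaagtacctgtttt
COX7B: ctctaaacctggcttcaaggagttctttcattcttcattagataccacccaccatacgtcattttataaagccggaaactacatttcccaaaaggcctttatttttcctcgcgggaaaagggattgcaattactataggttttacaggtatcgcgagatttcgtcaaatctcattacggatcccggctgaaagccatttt
Neither stretch held a motif, with 5 CpG in COX7B2 and 9 in COX7B.

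UQCRHL and ATP5MGL are intronless copies of UQCRH, the hinge protein of complex III, and ATP5MG, subunit g of ATP synthase. How reads shared by copy and parent were placed is not given in the sources used here, so values within the copied sequence are uncertain. UQCRHL was covered to 100% in ab8580 and 0% in the other 7 H3K4me3 lists, and UQCRH to 100% in all 8 (difference -87.5, SD 35.4, adjusted p = 0.0201, exact permutation test). In the H3K4me1 lists UQCRHL was at 100%, 100%, 100%, 100% and 85.5%, and UQCRH at 52.7%, 100%, 0%, 62.9% and 0%. ATP5MGL was at 0% in all 8 H3K4me3 lists, and ATP5MG between 94.8% and 100% (difference -98.5, SD 2.26, adjusted p = 0.0176, exact permutation test). ATP5MGL reached 100% in 4 of the 5 H3K4me1 lists and 0% in Active Motif 39635.

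**Figure D5:**
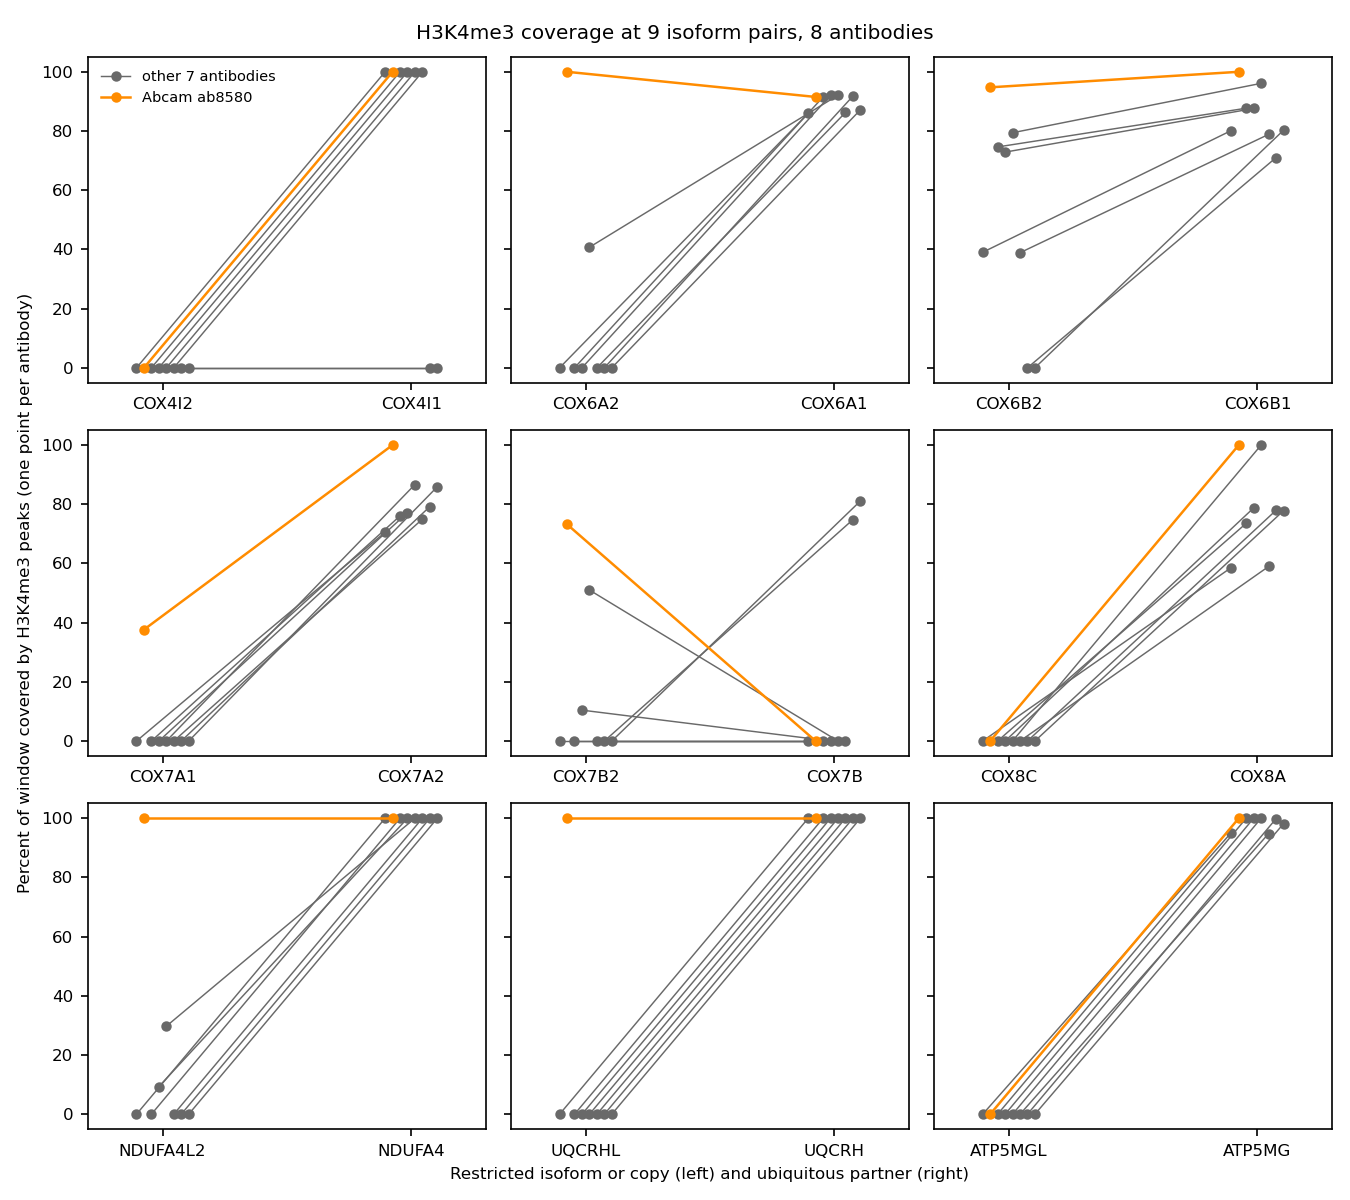
Percentage of the promoter window covered by H3K4me3 peaks at the restricted isoform or copy (left) and its ubiquitous partner (right) of 9 pairs, with 1 line per antibody and Abcam ab8580 in orange. Lines climb to the ubiquitous gene in most pairs, and ab8580 stays at 100% on the left for COX6A2, NDUFA4L2 and UQCRHL.

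Whether the pair difference itself changed with the degree of methylation was tested by permuting the 8 H3K4me3 and 5 H3K4me1 lists, a test added after the data were seen. The difference was more negative for H3K4me3 in 6 of 9 pairs: UQCRHL (-141 points between the marks), COX4I2 (-117), NDUFA4L2 (-112), ATP5MGL (-110), COX6A2 (-65.3) and COX7A1 (-51.7), with adjusted p from 0.00932 to 0.0490 by the exact permutation test. COX8C (-23.9, adjusted p = 0.0699), COX6B2 (-21.6, adjusted p = 0.383) and COX7B2 (-11.8, adjusted p = 0.732, exact permutation test) did not pass.

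Abcam ab8580 was the list in which restricted genes had H3K4me3 peaks most often. It was also the H3K4me3 list with peaks at the most genes, 75.3% of all genes. It held the single H3K4me3 peak at 2 of the 98 members (COX7A1 and UQCRHL) and at 2272 of all 19962 genes. No other antibody did so at more than 459 genes. EpiGentek A-4033-050 was the single list without a peak at ATP5PD, NDUFAF3, NDUFA2 and CYC1, and Diagenode C15410003 at NDUFA6. These were the H3K4me3 lists with peaks at the fewest genes, 33.5% and 40.2% of all genes. Such single absences were not counted over all genes.

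A corrected H3K4me3 peak was less frequent at members than a peak of any of the 8 H3K4me3 antibodies, which had peaks at 70 to 88 members. A corrected H3K4me3 peak lay at 28 of the 98 genes (18.1% of all genes). A corrected H3K4me2 peak lay at 68 (55.1%), also below the 83 to 93 of the H3K4me2 antibodies. A corrected H3K4me1 peak lay at 80 (71.4%), within the 72 to 92 of the H3K4me1 antibodies. Of the 65 members with H3K4me3 peaks in all 8 lists, 24 had a corrected H3K4me3 peak, 36.9% against 44.3% of the 6205 such genes. All 3 corrected lists had a peak at 25 members (16.4%), H3K4me1 and H3K4me2 without H3K4me3 at 41 (35.3%), H3K4me1 alone at 12 (18.4%), none at 16 (25.0%) and other combinations at 4 (4.90%). COX4I1 had all 3, with the authors' peak values of 56.1 for H3K4me3, 35.3 for H3K4me2 and 20.1 for H3K4me1. SDHA, SDHD, NDUFA4 and COX6A1, with peaks in all 8 H3K4me3 lists, had a corrected H3K4me2 and H3K4me1 peak and no corrected H3K4me3 peak. NDUFA1 had no corrected peak. Among the restricted genes COX7A1 had a corrected H3K4me3 peak, 251 bases wide with a value of 11.8, covering 12.5% of the window, and COX4I2 had a corrected H3K4me1 peak alone (value 37.9).

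Members arranged head to head had a median coverage of 95.0% in H3K4me3 lists and 54.8% in H3K4me1 lists, against 84.3% and 72.4% in the 61 ubiquitous members without such a neighbour. Among these members the other H3K4me3 measures did not run the same way: 18 of the 28 head-to-head members had H3K4me3 peaks in all 8 lists, against 47 of the 61, and 6 had a corrected H3K4me3 peak, against 21. Over all genes they did. Peaks in all 8 lists were found at 66.0% of head-to-head genes and 27.5% of the others, and a corrected H3K4me3 peak at 38.1% and 16.0%. Of the 28, 14 were called higher for H3K4me3, 50.0%, where 41.8% of all 1862 head-to-head genes were. Of the 70 members not arranged head to head, the 9 restricted genes included, 16 were called higher, 22.9% against 8.12% of all such genes. By motif, 18 of the 46 members with one were called higher, 39.1% against 23.7% of all genes with a motif, and 12 of the 52 without, 23.1% against 8.09%. No test was made of these splits.

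Genes that build or regulate the chain were read in the same way. All 43 further assembly factors had an H3K4me3 peak in at least 5 lists (52.9% of all genes), 12 were called higher (11.3%) and 3 lower (26.5%), and their median difference was 21.3 points. COX16, a complex IV assembly factor, was covered to 77.3% on average in H3K4me3 lists and to 0% in H3K4me1 lists (adjusted p = 0.0115, exact permutation test), and ACAD9, FOXRED1, SDHAF2, PET100 and LRPPRC also had an adjusted p of 0.0115. ECSIT, UQCC2 and COA3 were called lower, with differences of -29.5, -28.0 and -34.9 points. Of 15 regulators and carriers 13 had an H3K4me3 peak in at least 5 lists and 9 were called higher. They included NRF1, GABPA, GABPB1, the mitochondrial transcription factors TFB2M and TFAM, and cytochrome c (CYCS, 37.1 points, adjusted p = 0.0115, exact permutation test). PPARGC1A, the coactivator known from muscle and fat, had no H3K4me3 peak in any list and H3K4me2 and H3K4me1 peaks in 2 lists each. YY1, on chromosome 14, had an H3K4me2 peak in all 4 lists and no H3K4me3 or H3K4me1 peak. On chromosome 14 the mean share of genes with an H3K4me3 peak was 46.2%, against 54.9% over all genes. For H3K4me1 it was 55.6% against 78.0%, and the part of the chromosome at YY1 was not tested.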

How the data were processed

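Peak lists of K562 ICeChIP-seq libraries were used, and 2 K562 inputs and 4 mouse samples were not analysed here. Per the submitters' processing notes, Bowtie2, SAMtools, bedtools and MACS2 were used on GRCh38/hg38; the sources used here give no settings, filters or read depth, so depth per library is unknown and no counting interval is given. Libraries were amplified for 8 or 12 cycles per the labels. The deposited lists give each peak's start and end, a position in bases. In 14 H3K4 lists and the 3 corrected lists the authors added a score per peak that no header names. It served here for ranks and a filter within a list. Called peaks turn a continuous signal into presence or absence, so coverage depends on each list's calling.

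Windows of 1 kb either side of the TSS of canonical GENCODE 44 transcripts (19970, of which 19962 with distinct symbols) were intersected with the merged peaks in Python 3.11.15 with numpy 2.4.6 and pandas 2.3.3. Genes were tested with exact permutation tests over antibodies (1287 regroupings for 8 against 5), adjusted by Benjamini-Hochberg at 0.05. The test was checked on simulated data and against scipy 1.17.1. Members and gene lists were chosen with earlier results of these data known. Genes described in full were all isoform pairs, SDHA to SDHD, CYC1 and the 2 other subunits with peaks in the most and in the fewest of 17 lists in complexes I, III, IV and V (ties broken by mean coverage), and genes with no H3K4me3 peak. Others, such as NDUFA1 and ATP5MK among the calls, were picked after their values were seen. Sequences came from RefSeq (GRCh38.p14), whose promoter table matched 77 of 98 members, so motifs and CpG were counted on the hg38 genome for all genes. Alternatives were other windows and start sites, peak subsets, chromosomes, library sets and left-out antibodies.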

Additional observations from a re-analysis of the deposited data

Results flagged for a closer look

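Antibody values were screened in 60 sets (18 isoform pair genes and 2 summaries over the members, each in 3 targets). By an outlier rule, 17 had 1 antibody far from the rest. That rule marks about 5% of sets when values are normally distributed. Coverage has a floor and a ceiling with many ties, and 1 list apart from otherwise equal values is always marked. The count of 17 therefore cannot be set against 5%. No explanation was tested.

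Among the H3K4me3 lists Abcam ab8580 stood alone above the others at COX6A2 (100% of the window), COX7A1 (37.6%), NDUFA4L2 (100%) and UQCRHL (100%).

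Among the 4 H3K4me2 lists EMD Millipore 05-1338 stood below the others at COX4I1 (56.6%), COX6A1 (79.2%), COX6B2 (73.6%), COX6B1 (69.4%), COX7A2 (69.7%), NDUFA4L2 (9.75%), UQCRHL (0%), UQCRH (88.2%) and ATP5MG (82.4%). This list covered 111 Mb, the least of the 4. Cell Signaling Technologies 9725, which covered 1502 Mb, was the H3K4me2 list with a peak at COX7B (48.5%).

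Among the H3K4me1 lists the value apart was EpiGentek A-4031-050 at COX7B2 (45.7%), Thermo Fisher 710795 at UQCRHL (85.5%) and Active Motif 39635 at ATP5MGL (0%). Active Motif 39635 lacked a peak at 26 members, and at 18 of these its nearest peak was over 100 kb away.

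The restricted minus ubiquitous difference was lower in the H3K4me3 than in the H3K4me1 lists, by the exact permutation test of that change, for COX4I2 (H3K4me3 minus H3K4me1 -117 points), COX6A2 (-65.3), COX7A1 (-51.7), NDUFA4L2 (-112), UQCRHL (-141) and ATP5MGL (-110).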

How the results depend on the processing

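For H3K4me3 against H3K4me1, leaving out 1 antibody gave 10 to 29 members called higher and 1 to 10 lower. In the following, the share of all genes called stands in brackets. The AR16 lists alone gave 20 higher (9.15%) and 1 lower (11.7%), and the 5′ end of the gene 24 (9.96%) and 14 (29.4%). The 5 H3K4me3 and 5 H3K4me1 lists with peak values, restricted to the upper 50% of values in each, gave 22 (8.44%) and 4 (17.1%); with all their peaks, a setting chosen after seeing the data, they gave 23 (10.2%) and 6 (24.4%). The lists of 8 amplification cycles gave 0 and 0, and presence or absence by Fisher's exact test 0 and 0 (33 and 6, and 2 and 5, members at an unadjusted p under 0.05). A window of 0.5 kb gave 43 (15.4%) and 5 (19.2%), and one of 2.5 kb 6 (0.997%) and 53 (56.1%). With 2.5 kb these calls of a higher coverage turned negative (points): ATP5PB -20.0, NDUFS3 -33.4, NDUFV1 -30.5, NDUFS8 -37.8, SDHD -37.0, ATP5MG -30.8, NDUFA9 -19.0, UQCRC2 -23.6, ATP5MC1 -30.2, NDUFAF8 -30.9, NDUFS7 -42.4, UQCR11 -35.4, NDUFA7 -16.7, COX7A2L -27.9, NDUFV3 -36.1, UQCR10 -14.6, NDUFB5 -24.3, NDUFC1 -0.0650, NDUFA4 -24.0 and NDUFB9 -25.4. At the 5′ end of the gene NDUFS3 -12.1, NDUFV1 -47.6 and COX7A2L -63.1 points did, at starts 13738, 1283 and 63871 bases from the canonical TSS. Without chromosomes 13, 14 and X the counts were 29 (11.8%) and 7 (28.9%). The other contrasts gave 0 calls in every setting run.

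Of the isoform pairs, 7 or 8 of 9 passed when 1 antibody was left out, 8 with either other window and 7 at the 5′ end of the gene, where COX7A1 minus COX7A2 turned to 3.28 points. There the start of COX7A2 moved by 6522 bases and that of COX7A1 by 2. The AR16 lists, the lists of 8 cycles and the lists with peak values (all peaks, or those above the median value) gave 0; with 5 lists the smallest possible p is 0.0625. The share of members with a peak kept within 1 SD under all settings for H3K4me3 and H3K4me2, with left-out antibodies at 83.5% to 86.2% and 87.8% to 91.2%. For H3K4me1 left-out antibodies gave 83.2% to 88.3%, a 0.5 kb window 76.1% and a requirement of 50% of the window 64.7%. Without both readthrough genes, a setting chosen after seeing the data, shares were 84.0%, 89.3% and 85.0%. No paired analysis was possible because the replicate numbers only name antibodies in accession order. Read depth, which limits peak calls, is unknown, and a promoter without a called peak may still carry the modification.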
